A study of Homo sapiens with 6 samples.

Results

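The CLK, SRPK and DYRK1 kinases were examined as a group of 8 genes, CLK1, CLK2, CLK3, CLK4, SRPK1, SRPK2, DYRK1A and DYRK1B, of the 17534 genes in the deposited tables. Each was found by its symbol in the count table. The group was chosen by gene family but with earlier results of these same libraries known, including higher CLK1 and CLK4 levels, so the values of the 8 kinases in this comparison are given as a description without p-values. RNA sequencing compared cells labelled Sh-PPM1G, which carry a short hairpin RNA (shRNA) against the phosphatase gene PPM1G, with cells labelled Sh-NC, and there were 3 libraries in each group. The series text calls the Sh-NC cells wild type, and they are called control here. All libraries came from NCI-H1703, a human lung cancer line that the labels call squamous. The number and sequence of hairpins, the number of clones and the time after knockdown are not given by the labels, which also do not say that replicates were separate cultures. Errors therefore measure the spread between these libraries, which may be technical.

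These kinases phosphorylate SR proteins, splicing factors with a tail rich in arginine and serine that help the spliceosome to recognise exons and splice sites. SRPK1 and SRPK2 work mainly in the cytoplasm, where phosphorylation of the tail lets SR proteins enter the nucleus through the import receptor TNPO3. The CLK kinases are nuclear, phosphorylate the tails further and release SR proteins from nuclear speckles. DYRK1A and DYRK1B are related kinases that phosphorylate themselves on tyrosine and then act on serine and threonine. DYRK1A is known to phosphorylate splicing factors and LIN52, a step in the assembly of the DREAM complex that represses cell cycle genes. PPM1G, a phosphatase of the PP2C family, is itself known to act on splicing factors and thus on the opposite side of the same cycle.

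The libraries held 31337553 to 35838246 counts, with 15117 to 15376 genes detected. PPM1G, the targeted gene, had 182, 194 and 188 CPM (counts scaled to a common library size with TMM factors) in Sh-PPM1G libraries 1 to 3, against 333, 308 and 324 CPM in control libraries 1 to 3. All Sh-PPM1G libraries were below all control libraries, at 0.585 of the control level. Of 6 squamous markers looked for, SOX2 averaged 10.6 CPM in Sh-PPM1G and 22.7 CPM in control libraries, a log2 fold change of −1.09. TP63 stood at 0.567 to 1.75 CPM over the 6 libraries (log2 fold change −0.89). Their adjusted p in edgeR's quasi-likelihood test was 4.74e-14 for SOX2 and 0.00587 for TP63. KRT6A, KRT14 and DSG3 were under 1 CPM in every library, and KRT5 was not found by its symbol in the count table. Of 3 lung adenocarcinoma markers, NKX2-1 stood at 106 to 128 CPM over the 6 libraries and did not pass (log2 fold change 0.09). NAPSA averaged 21.8 CPM in Sh-PPM1G and 2.16 CPM in control libraries (log2 fold change 3.33). The adjusted p in edgeR's quasi-likelihood test was 0.0643 for NKX2-1 and 5.88e-24 for NAPSA. SFTPB was under 0.1 CPM in every library. The summed level of these 3 was 137 to 150 CPM in Sh-PPM1G and 109 to 123 CPM in control libraries. Of 4 epithelial markers, KRT8 and KRT18 were the most abundant. EPCAM stood at 10.3 to 12.7 CPM and CDH1 was under 1 CPM in every library. KRT18 rose slightly (log2 fold change 0.16) and KRT8 fell slightly (−0.18). The adjusted p in edgeR's quasi-likelihood test was 0.000613 for KRT18 and 1.05e-05 for KRT8, and EPCAM and CDH1 did not pass. The summed level of the 4 was 299 to 319 CPM in Sh-PPM1G and 316 to 338 CPM in control libraries. Apart from SOX2, the measured markers of the labelled squamous type were thus near 0, and nothing is known here of KRT5. The summed level of the measured squamous markers was 11.1 to 12.1 CPM in Sh-PPM1G and 23 to 26.3 CPM in control libraries. Of 5 markers of other cells, 4 were tested, 2 rose and 2 fell, where 41.5% of all genes rose and 41.3% fell. PDGFRB (log2 fold change 1.26) and COL1A1 (1.15), both fibroblast genes, rose. COL1A2 (−0.69), also a fibroblast gene, and the endothelial gene PECAM1 (−2.30) fell. The adjusted p of these 4 in edgeR's quasi-likelihood test was at most 4.21e-05. The summed level of the 5 was 355 to 363 CPM in Sh-PPM1G libraries and 163 to 183 CPM in control libraries, most of it COL1A1. The leukocyte marker PTPRC was near 0 throughout. The part of these markers in the results below was not tested. Bulk RNA levels do not tell a change in the number of cells of a kind from a change of RNA per cell.

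The sequences before the transcription starts of CLK1 and CLK4, the pair that was higher in the Sh-PPM1G libraries within its family, and of SRPK1, the kinase that was lower by the widest margin, are shown so that their make-up can be set beside the levels. They are the 250 bases upstream of a RefSeq start on GRCh38.p14, all on the minus strand, at chr2:200864659-200864908 for CLK1, chr5:178627051-178627300 for CLK4 and chr6:35921099-35921348 for SRPK1. Capitals mark letters of the motifs searched.
CLK1: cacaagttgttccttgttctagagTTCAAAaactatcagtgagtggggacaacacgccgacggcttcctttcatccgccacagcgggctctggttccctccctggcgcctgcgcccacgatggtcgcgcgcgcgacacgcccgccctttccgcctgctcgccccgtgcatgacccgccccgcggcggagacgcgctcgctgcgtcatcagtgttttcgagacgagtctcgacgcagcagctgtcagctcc
CLK4: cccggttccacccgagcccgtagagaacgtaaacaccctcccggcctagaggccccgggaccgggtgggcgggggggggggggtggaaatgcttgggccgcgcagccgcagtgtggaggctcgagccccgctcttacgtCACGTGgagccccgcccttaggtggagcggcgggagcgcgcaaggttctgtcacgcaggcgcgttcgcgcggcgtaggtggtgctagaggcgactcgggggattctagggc
SRPK1: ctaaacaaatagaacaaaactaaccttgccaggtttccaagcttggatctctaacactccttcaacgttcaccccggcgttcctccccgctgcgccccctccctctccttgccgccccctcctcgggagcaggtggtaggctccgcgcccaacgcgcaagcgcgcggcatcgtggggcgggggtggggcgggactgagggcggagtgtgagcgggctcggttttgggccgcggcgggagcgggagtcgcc

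The motifs were searched on both strands in windows from 250 bases before to 50 bases after each start. They were TGACGTCA (the cAMP response element), TGATGNAA (an ATF4 composite site), GAANNTTC (a heat shock element unit), CACGTG (an E-box) and TTTGAA (the cell cycle homology region, CHR). All 8 kinases matched the promoter table, with 18 windows among them. The CLK1 window shown held TTTGAA on the reverse strand, starting 226 bases before the start, and its second window, at a downstream start, held none of the motifs. The CLK4 window held CACGTG, beginning 111 bases before the start. The SRPK1 window held none. Of the other kinases, CLK2, DYRK1B and DYRK1A held CACGTG in 1 window each, SRPK2 and DYRK1A held TTTGAA, DYRK1A also held TGATGNAA, and CLK3 held none. The letters TTTGAA are in 15.2%, CACGTG in 7.26% and TGATGNAA in 3.62% of all 35116 promoter windows. These shares are per window, so a kinase with several windows, such as DYRK1A, had more chances of a match. No motif was shared by the CLK1 and CLK4 windows. A match is a description of letters, and its absence says nothing of the factor.

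Of the 8 kinases, CLK1 differed most. CLK1 (Entrez 1195; chromosome 2, positions 200853009 to 200864658 on GRCh38) phosphorylates SR proteins in the nucleus. Its level was 178, 178 and 187 CPM in Sh-PPM1G libraries 1 to 3 and 33.9, 31.7 and 34.0 CPM in control libraries 1 to 3. The lowest Sh-PPM1G library was far above the highest control library. The fitted level was 5.45 times the control level, a log2 fold change of 2.45 (SE 0.04; 95% interval 2.36 to 2.53). Among the 13060 genes that passed the filter on low counts, 3.85% had a larger absolute log2 fold change.

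CLK4 (Entrez 57396; chromosome 5, positions 178602664 to 178627050), the closest relative of CLK1 in the family, was also higher. It stood at 42.7, 39.2 and 37.9 CPM in Sh-PPM1G libraries and at 13.2, 14.2 and 13.4 CPM in control libraries. The groups did not overlap, and the log2 fold change was 1.55 (SE 0.07; 95% interval 1.42 to 1.69), or 2.93-fold. The 95% interval of CLK4 lay below that of CLK1. CLK4 was nevertheless at a much lower level than CLK1 per length, at 16.5 ± 0.98 FPKM against 81.1 ± 2.6 FPKM for CLK1 in the Sh-PPM1G libraries (SD, n = 3).

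CLK2 and CLK3 did not share this pattern. CLK2 (Entrez 1196; chromosome 1, positions 155262868 to 155273504), a nuclear kinase of SR proteins, stood at 46.0, 51.2 and 48.1 CPM in Sh-PPM1G libraries and at 44.2, 42.8 and 53.1 CPM in control libraries. The groups overlapped, control library 3 was above every other library, and the log2 fold change was 0.05 (95% interval −0.09 to 0.20). Without control replicate 3, which differed most from the other control libraries, it was 0.16, and with plain library totals it was 0.15. CLK3 (Entrez 1198; chromosome 15, positions 74608372 to 74630201) stood at 70.1, 65.4 and 68.0 CPM in Sh-PPM1G libraries and at 76.7, 78.2 and 80.3 CPM in control libraries. It was slightly lower in all 3 Sh-PPM1G libraries, with a log2 fold change of −0.21 (SE 0.04; 95% interval −0.30 to −0.12).

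The SRPK pair was divided. SRPK1 (Entrez 6732; chromosome 6, positions 35832966 to 35921098), the main cytoplasmic SR protein kinase in many cell types, stood at 97.0, 104 and 99.6 CPM in Sh-PPM1G libraries and at 229, 232 and 227 CPM in control libraries. Every Sh-PPM1G library was below every control library, at 0.437 of the control level (log2 fold change −1.19, SE 0.03, 95% interval −1.26 to −1.13). SRPK2 (Entrez 6733; chromosome 7, positions 105114740 to 105399357), which shares substrates with SRPK1 and is abundant in brain, stood at 279, 289 and 277 CPM in Sh-PPM1G libraries and at 275, 274 and 273 CPM in control libraries. The Sh-PPM1G libraries were marginally higher, and the 95% interval of the log2 fold change, −0.02 to 0.10, spans 0.987 to 1.07 of the control level. With plain library totals in place of TMM factors the log2 fold change of SRPK2 was 0.14.

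The DYRK1 pair was divided as well. DYRK1A (Entrez 1859; chromosome 21, positions 37365573 to 37526358), a dosage-sensitive kinase of the Down syndrome region, stood at 68.2, 70.9 and 68.5 CPM in Sh-PPM1G libraries and at 36.6, 33.3 and 34.5 CPM in control libraries. The groups were well apart, and the log2 fold change was 0.99 (SE 0.05; 95% interval 0.89 to 1.09), or 1.99-fold. DYRK1B (Entrez 9149; chromosome 19, positions 39825350 to 39834162), known for maintaining quiescence in muscle and tumour cells, stood at 18.3, 14.3 and 16.0 CPM in Sh-PPM1G libraries and at 17.6, 15.8 and 14.7 CPM in control libraries. Its libraries overlapped, it varied most of the 8 kinases between Sh-PPM1G replicates (coefficient of variation 12.3% over n = 3), and its log2 fold change was 0.01 (95% interval −0.17 to 0.19), which spans 0.891 to 1.14 of the control level.

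**Figure D1:**
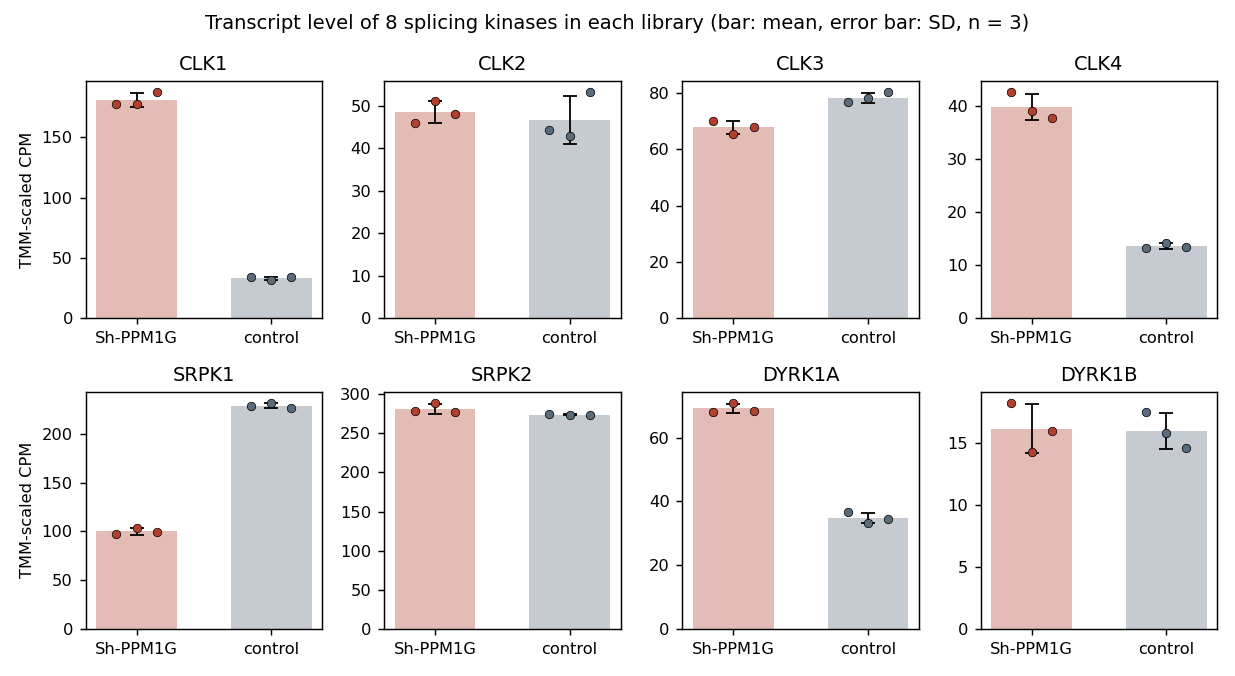
TMM-scaled CPM (vertical axes, each from 0) of the 8 kinases in Sh-PPM1G (left, red) and control (right, grey) libraries, with points for libraries, bars for means and error bars for SD (n = 3). CLK1, CLK4 and DYRK1A were higher and SRPK1 was lower in every Sh-PPM1G library, whereas the points of CLK2 and of DYRK1B overlapped between groups.

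All 8 kinases passed the filter. At an adjusted p under 0.05 in edgeR's quasi-likelihood test over all genes, 5 of them were past the threshold, where 82.9% of all genes tested were. Of the 5, CLK1, CLK4 and DYRK1A were higher and CLK3 and SRPK1 lower, that is 3 and 2, where 41.5% of all genes were higher and 41.3% lower. At least 2-fold differences were seen for 2 kinases upward (CLK1 and CLK4) and 1 downward (SRPK1), where 11.8% and 12.4% of all genes were. For 6 of the 8 the Sh-PPM1G and control libraries did not overlap in CPM, where this held for 83.7% of all genes. Since the group was put together with this contrast known, nothing is read from these counts. The share of all genes with a larger absolute log2 fold change was 10.8% for CLK4, 18.0% for SRPK1, 24.6% for DYRK1A, 79.4% for CLK3, 94.6% for CLK2, 96.0% for SRPK2 and 98.7% for DYRK1B. CLK2, SRPK2 and DYRK1B were thus among the genes with the smallest differences, and CLK1 among those with the widest.

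**Figure D2:**
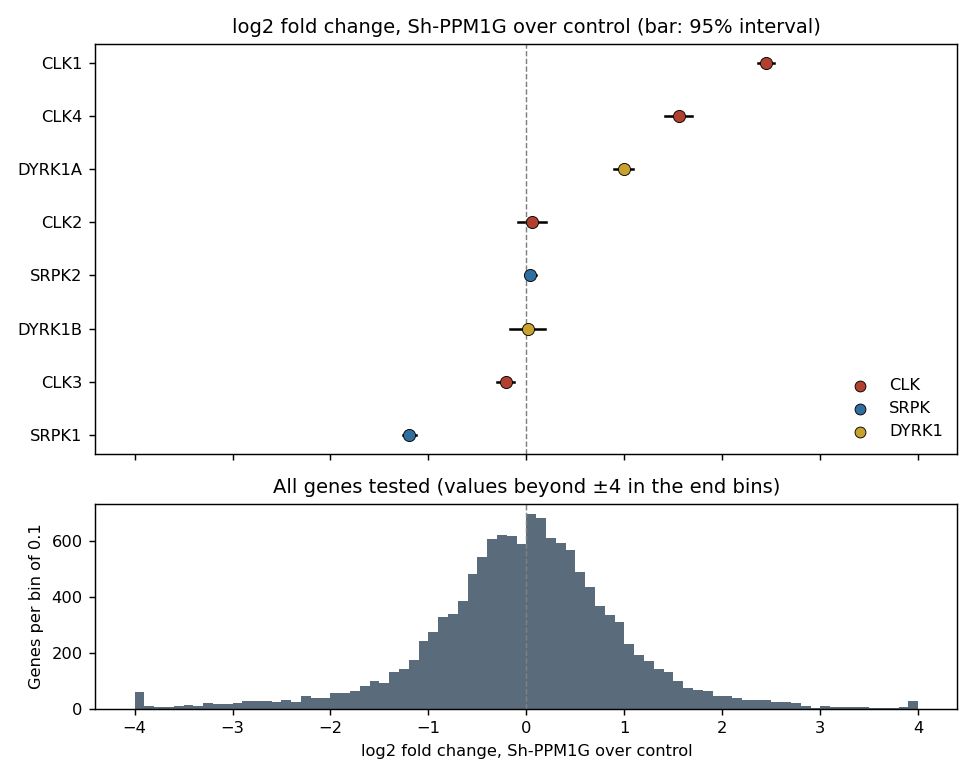
Upper panel, log2 fold change of each kinase (Sh-PPM1G over control; point, fitted value; bar, 95% interval), coloured by family; lower panel, the number of genes per bin of 0.1 for all 13060 genes tested on the same axis. CLK1 lies at 2.45 and SRPK1 at −1.19, and each family has a member near 0.

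Levels were then compared between genes on the deposited FPKM scale, which divides by gene length and by the plain library total. In the Sh-PPM1G libraries the order of mean FPKM was CLK1 (81.1 ± 2.6), SRPK2 (39.9 ± 0.93), CLK3 (36.8 ± 1.2), SRPK1 (23.8 ± 0.85), CLK2 (23.3 ± 1.3), CLK4 (16.5 ± 0.98), DYRK1A (6.18 ± 0.14) and DYRK1B (5.31 ± 0.64; SD, n = 3 for each). SRPK1 and CLK2 overlapped in this order and the other neighbours did not. In the control libraries the order was SRPK1 (50.9 ± 0.64), CLK3 (39.7 ± 0.91), SRPK2 (36.2 ± 0.085), CLK2 (20.9 ± 2.5), CLK1 (13.9 ± 0.52), CLK4 (5.24 ± 0.22), DYRK1B (4.90 ± 0.45) and DYRK1A (2.90 ± 0.14). Here CLK4 and DYRK1B overlapped and the other neighbours did not. CLK1 thus held the first place in Sh-PPM1G libraries and the fifth in control libraries, and SRPK1 the fourth and the first. These first places depend on the length scaling. On mean CPM, SRPK2 was above CLK1 in Sh-PPM1G libraries (282 against 181) and above SRPK1 in control libraries (274 against 229).

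Within a library, the share of each kinase in the summed FPKM of its family does not depend on the library scaling. CLK1 made up 50.6%, 51.1% and 52.6% of the CLK sum in Sh-PPM1G libraries 1 to 3 and 18.2%, 17.1% and 16.9% in control libraries 1 to 3. CLK3 made up 23.3 ± 0.72% in Sh-PPM1G libraries and 49.8 ± 1.3% in control libraries, although its own level differed little. CLK2 made up 14.8 ± 0.91% in Sh-PPM1G and 26.2 ± 1.9% in control libraries, and CLK4 10.5 ± 0.70% and 6.59 ± 0.47% in the same order. The most abundant CLK transcript was thus CLK1 in all 3 Sh-PPM1G libraries and CLK3 in all 3 control libraries. CLK1 exceeded CLK4 by a ratio of 4.52, 4.91 and 5.36 in Sh-PPM1G libraries and of 2.79, 2.42 and 2.75 in control libraries. The CLK sum was 158 ± 1.9 FPKM in Sh-PPM1G and 79.7 ± 3.5 FPKM in control libraries, and CLK1 alone accounted for 86.2% of the difference.

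In the SRPK pair, SRPK1 made up 36.9%, 37.7% and 37.7% of the sum in Sh-PPM1G libraries and 58.4%, 58.7% and 58.2% in control libraries, so that SRPK2 was the more abundant transcript in all Sh-PPM1G libraries and SRPK1 in all control libraries. The SRPK sum was 63.7 ± 1.7 FPKM in Sh-PPM1G and 87.1 ± 0.72 FPKM in control libraries. DYRK1A made up 50.4%, 57.5% and 53.9% of the DYRK1 sum in Sh-PPM1G libraries and 36.2%, 36.5% and 39.1% in control libraries. DYRK1A was thus the more abundant of the pair in Sh-PPM1G libraries and DYRK1B in control libraries. The ratio of CLK1 to SRPK1 was 3.41 ± 0.16 in Sh-PPM1G and 0.273 ± 0.013 in control libraries. The summed level of all 8 kinases was 233 ± 1.4 FPKM in Sh-PPM1G and 175 ± 2.5 FPKM in control libraries. This sum is per length and carries the plain library totals, so its size depends on the scale. On TMM-scaled CPM the CLK sum was 337 in Sh-PPM1G and 172 in control libraries. The SRPK sum was 382 and 503 CPM and the DYRK1 sum 85.4 and 50.8 CPM in the same order. Without length scaling, the SRPK and DYRK1 orders differ: on CPM, SRPK2 exceeded SRPK1 in both groups (SRPK1 share 26.2% in Sh-PPM1G and 45.5% in control libraries), and DYRK1A exceeded DYRK1B in both (81.0% in Sh-PPM1G and 68.5% in control libraries).

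**Figure D3:**
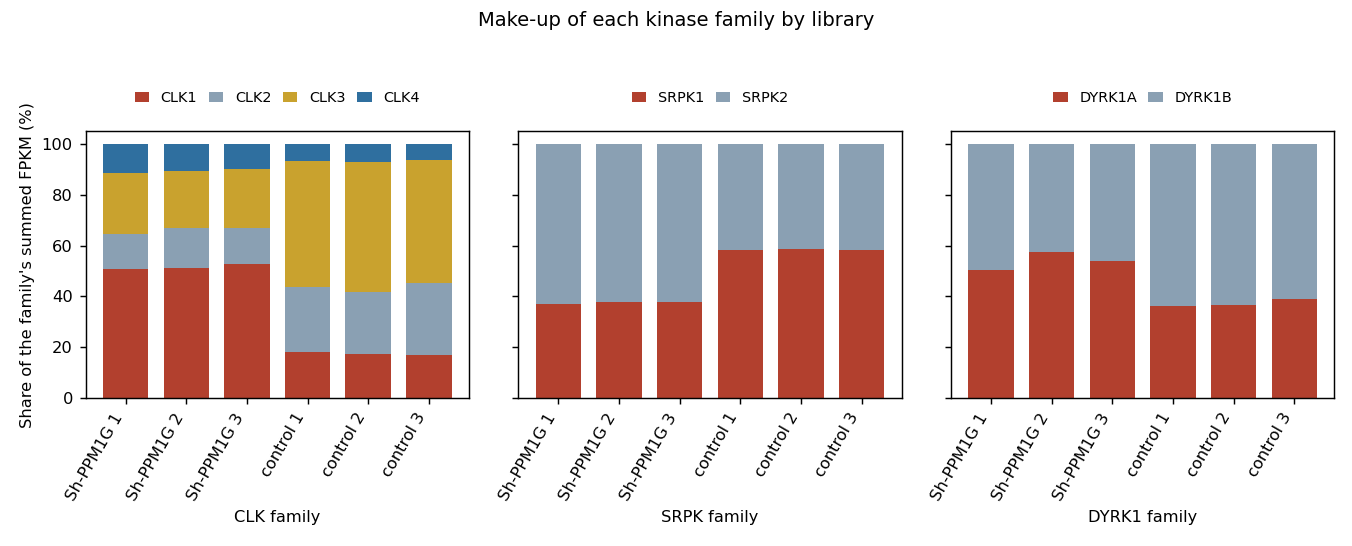
Share of each kinase in the summed FPKM of its family (%, stacked to 100%), with Sh-PPM1G libraries left of control libraries in each panel. CLK1 fills 50.6% to 52.6% of the CLK bar in Sh-PPM1G libraries and 16.9% to 18.2% in control libraries, and SRPK1 fills 36.9% to 37.7% and 58.2% to 58.7% in the same order.

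The counts are per gene and do not tell transcripts apart. CLK1 and CLK4 are known to be made in part as nuclear RNAs that keep introns, or that skip the exon needed for the kinase domain, and to be spliced on demand. GENCODE release 29 lists 15 transcripts for CLK1, of which 8 are of the retained intron type, 2 are targets of nonsense-mediated decay and 4 are protein-coding. It lists 15 for CLK4, with 7 of the retained intron type, 3 decay targets and 4 coding. CLK2, whose level differed little, has 0 of the retained intron type among 7 transcripts, whereas CLK3, which was slightly lower, has 8 among 27. SRPK1 has 4 among 13, SRPK2 2 among 15, DYRK1A 4 among 24 and DYRK1B 1 among 8. How far coding transcripts make up the higher CLK1 and CLK4 counts was not tested. In the RefSeq annotation CLK1 and CLK2 overlap no other gene. SRPK2 overlaps the protein-coding gene KMT2E, itself higher (log2 fold change 0.89), over 280 bases, and also overlaps lncRNA genes and pseudogenes. CLK3 overlaps CLK3-AS1 over 7421 bases, CLK4 and DYRK1B hold a small RNA gene or pseudogene, and DYRK1A and SRPK1 overlap lncRNA genes. CLK2, CLK3 and SRPK2 have named pseudogenes (CLK2P1, CLK3P1, CLK3P2 and SRPK2P1) that may share reads.

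Genes with the most similar profile were sought for the kinase that differed most in each family. Likeness was the root mean square difference of log2 CPM, relative to the control mean, over the 6 libraries, among 10135 other genes with a mean log2 CPM of at least 3. Nearest to CLK1 were DNAH5, a dynein heavy chain gene of cilia (0.047), TRIM16L (0.053) and GPCPD1, a glycerophosphocholine phosphodiesterase gene (0.055), and 15 genes lay within 0.1. Nearest to SRPK1 were the axon guidance receptor gene ROBO1 (0.021), METTL9 (0.025) and CYCS, which encodes cytochrome c (0.026), and 231 genes lay within 0.1. Nearest to DYRK1A were TRIM56 (0.028), the mitochondrial superoxide dismutase gene SOD2 (0.030) and RNF19A (0.034), with 342 genes within 0.1. The profiles rest on the same group difference in the same 6 libraries.

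Other kinases of the CMGC group to which these families belong were looked at as a list of 13, of which 11 were tested. Of these, 8 rose, 0 fell and none changed by 2-fold, where 41.5% of all genes rose and 41.3% fell. Their median log2 fold change was 0.21, against 0.01 for all genes. CDK13, which phosphorylates RNA polymerase II, rose by 0.59 ± 0.04 (log2 fold change ± SE), with 95.3 ± 2.1 CPM in Sh-PPM1G and 63.2 ± 2.5 CPM in control libraries (SD, n = 3 each). HIPK3 (0.42 ± 0.05), DYRK2 (0.32 ± 0.04) and CDK11B (0.29 ± 0.06) rose less, and CDK11B may share reads with its near-identical copy CDK11A, so that its level is uncertain. Their adjusted p in edgeR's quasi-likelihood test was between 1.7e-14 and 4.2e-05. Without control replicate 3, 1 gene of the list was called lower. DYRK3, CDK12 and DYRK4 did not pass, and SRPK3 and HIPK4 did not pass the filter on low counts.

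The SR proteins are the shared substrates of CLK and SRPK kinases. Of 14, 13 were tested, 7 rose (53.8%) and 4 fell (30.8%), where 41.5% of all genes rose and 41.3% fell. None changed by 2-fold, where 11.8% of all genes were at least 2-fold higher and 12.4% lower, and the median log2 fold change was 0.23. SRSF8 rose by 0.89 ± 0.05 (54.1 ± 1.95 CPM in Sh-PPM1G and 29.1 ± 2.1 CPM in control libraries). TRA2A, which encodes a splicing activator outside the classical SR family, rose by 0.57 ± 0.04, while its paralog TRA2B was lower (−0.31 ± 0.04). SRSF9 (−0.48 ± 0.03) and SRSF4 (−0.39 ± 0.04) fell. The adjusted p of these 5 genes ranged from 4.18e-16 to 2.37e-09.

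Among 23 SR-related and speckle protein genes, 11 rose (47.8%) and 9 fell (39.1%), shares near the 41.5% and 41.3% of all genes, with a median of 0.19. CCNL1 and CCNL2 encode cyclin L proteins of the CDK11 kinases and sit in speckles. CCNL1 rose by 1.42 ± 0.04, to 216 ± 1.8 CPM in Sh-PPM1G libraries, against 80.6 ± 3.0 CPM in control libraries, and CCNL2 rose by 0.91 ± 0.05. LUC7L, a U1-associated splicing factor gene, rose by 1.01 ± 0.05 (56.4 ± 2.9 CPM in Sh-PPM1G and 28.0 ± 0.61 CPM in control libraries). PNN, which encodes the speckle protein pinin, fell (log2 fold change −0.92 ± 0.03). These 4 had adjusted p from 6.62e-27 to 2.57e-12. CLASRP, named for its association with CLK4, rose by 0.38 ± 0.05 (adjusted p = 7.96e-09).

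Partners of SRPK kinases and of SR protein import mostly fell, 7 of 8, of which 4 by at least 2-fold, with 1 rise and a median of −0.998. Of all genes 41.3% fell, 12.4% by at least 2-fold, and 41.5% rose. SRPK1 is known to be held in the cytoplasm by chaperones. The HSP70 gene HSPA8 fell (log2 fold change −1.89 ± 0.03), as did the HSP90 genes HSP90AA1 (−1.74 ± 0.03) and HSP90AB1 (−1.16 ± 0.03) and the HSP90 activator gene AHSA1 (−1.59 ± 0.03). AHSA1 stood at 83.3 ± 3.0 CPM in Sh-PPM1G and 250.5 ± 1.9 CPM in control libraries. The adjusted p of these 4 was at most 3.86e-28. These chaperone and activator genes were the only members of the list to fall by at least 2-fold. The SR import receptor gene TNPO3 was lower by a smaller margin (−0.22 ± 0.04, adjusted p = 1.3e-06). DNAJC8 (−0.84 ± 0.04) and SAFB (−0.09 ± 0.03) were also lower by less than 2-fold, and SAFB2 rose (0.37 ± 0.04). HSPA8 and the HSP90 genes have pseudogenes that may share their reads.

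Genes of serine and threonine phosphatases, enzymes that remove phosphate, were listed together with the nuclear subunit genes PPP1R8 and PPP1R10. Most of them fell, though phosphatase activity was not measured. Among 9 such genes 8 were past the threshold downward and 0 upward, against 41.3% and 41.5% of all genes, with a median of −0.32, and the 9 include the knockdown target PPM1G itself. Over all settings tried, 6 to 8 fell. PPP1R10, which encodes PNUTS, a nuclear targeting subunit of protein phosphatase 1, fell (log2 fold change −1.47 ± 0.05), to 34.8 ± 1.3 CPM in Sh-PPM1G libraries, against 96.6 ± 5.6 CPM in control libraries. The catalytic subunit gene PPP1CC (−1.06 ± 0.03) and PPP6C (−0.35 ± 0.04) also fell. PPP1R8, another nuclear subunit gene, did not pass in edgeR's quasi-likelihood test (log2 fold change 0.02, adjusted p = 0.71), though with plain library totals 1 gene of the list was called higher. The adjusted p of PPP1R10, PPP1CC and PPP6C was at most 3.29e-10.

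For DYRK1A, the DREAM and MuvB complex and other partners were considered. Of 11 complex genes, 9 fell, 4 of them by at least 2-fold, and 1 rose, with a median of −0.53. Over all genes 41.3% fell, 12.4% by at least 2-fold, and 41.5% rose. LIN52, the substrate of DYRK1A in the complex, had 10.7, 10.6 and 12.8 CPM in Sh-PPM1G libraries and 24.7, 25.2 and 25.7 CPM in control libraries, and fell (log2 fold change −1.15 ± 0.08). It was thus lower in every Sh-PPM1G library, where DYRK1A was higher. RBL1, which encodes the pocket protein p107, fell (−1.51 ± 0.06), as did TFDP1 (−1.39 ± 0.04) and LIN54 (−1.02 ± 0.09), whereas E2F5 rose (0.94 ± 0.05, adjusted p = 1.28e-17). Adjusted p values of LIN52, RBL1, TFDP1 and LIN54 were between 2.29e-24 and 4.5e-12.

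Of 15 other DYRK1 partners and substrates, 14 were tested, 5 rose (35.7%) and 8 fell (57.1%), against 41.5% and 41.3% of all genes, with a median of −0.34. CCND1, which encodes cyclin D1, a protein marked for degradation by DYRK1 kinases, fell (log2 fold change −2.71 ± 0.03), to 93.9 ± 4.2 CPM in Sh-PPM1G libraries, against 616 ± 19 CPM in control libraries. CDKN1B, which encodes the cell cycle inhibitor p27 that DYRK1B is known to stabilise, rose by 1.17 ± 0.04 (125 ± 3.9 CPM in Sh-PPM1G and 55.7 ± 1.8 CPM in control libraries). The transcription factor gene FOXO1 rose (2.19 ± 0.07) and NFATC2 fell (−1.14 ± 0.05). DCAF7, which encodes the adaptor that binds DYRK1A and DYRK1B, was lower (−0.65 ± 0.03), and FAM53C, which encodes a DYRK1A-binding protein, was higher (0.92 ± 0.04). The adjusted p of these 6 genes was at most 1.5e-19. All values here are RNA levels, whereas the DYRK1 effects on cyclin D1 and p27 act on protein, which was not measured.

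**Figure D4:**
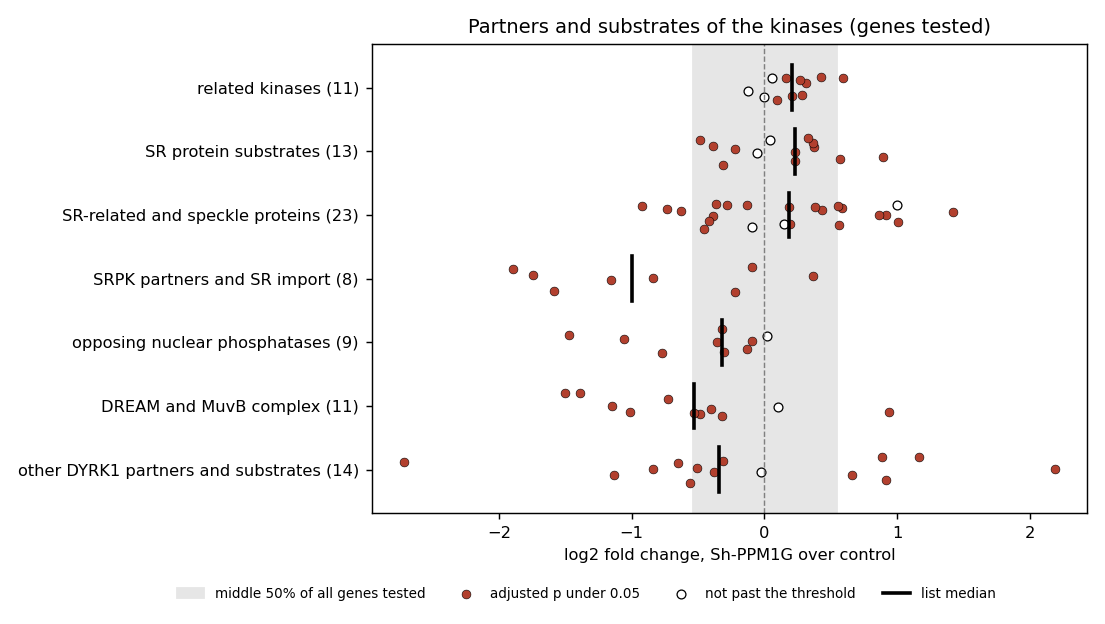
Log2 fold change (Sh-PPM1G over control) of the tested members of 7 lists of related kinases, substrates and partners (number tested in brackets), with filled points past an adjusted p of 0.05, open points not past it, vertical bars for list medians and a grey band from −0.53 to 0.55 for the middle 50% of all genes. The medians of the SRPK partner list (−0.998) and of the DREAM and MuvB list (−0.53) lie lowest, and those of the SR protein and related kinase lists lie at 0.23 and 0.21.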

How the data were processed

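The series holds RNA sequencing of 3 Sh-PPM1G and 3 control libraries. The authors deposited whole-number counts and FPKM values for the same genes. The genome build was GRCh38, per the submitters' processing notes, while no source used here gives the aligner, counting program or strand setting. Each FPKM value equals the deposited count over a fixed length per gene and the plain library total. Counts were analysed in R 4.3.3 with edgeR 4.0.16 (filterByExpr with a minimum of 10 counts, TMM factors, robust quasi-likelihood fit, group as the only term), with Benjamini-Hochberg adjustment over all 13060 genes tested and a threshold of 0.05. Standard errors are the absolute log2 fold change over the square root of F. Fold changes are Sh-PPM1G over control. limma 3.58.1 and DESeq2 1.42.0 served as alternatives. Replicates of a group differed beyond sampling noise (chi-square per degree of freedom 2.69 to 6.44). Each library was entered as 1 replicate, though this spread cannot show that the libraries came from separate cultures.

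The kinases, the gene lists and the tests were chosen with earlier results of these data known. Named genes were the 8 kinases, PPM1G, the members of each list past the threshold that differed most on the log2 scale, up to 4 per list, and 3 nearest profiles for the leading kinase of each family. PPP1R8, TNPO3, DNAJC8, SAFB, SAFB2, TRA2B, CLASRP, DCAF7, FAM53C, E2F5 and the genes named only as not past the threshold or the filter were named after their values were seen, for their role. Positions, overlaps and sequences are from RefSeq tables on GRCh38.p14, and transcript types from GENCODE release 29. Replicate numbers do not state a shared batch.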

Additional observations from a re-analysis of the deposited data

How the results depend on the processing

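The counts of calls and the log2 fold changes of the kinases, PPM1G and the genes named by rule were recomputed under 16 alternatives, but not those of the markers or of the genes named after their values were seen. As a description, the log2 fold changes ranged over these settings as follows: CLK1 2.41 to 2.55, CLK3 −0.23 to −0.11, CLK4 1.49 to 1.65, SRPK1 −1.22 to −1.06, DYRK1A 0.88 to 1.09 and DYRK1B −0.08 to 0.11. CLK2 was at 0.15 with plain library totals, and over the fits that leave out each library it lay between −0.0063 and 0.16. Unlike in the main fit, CLK2 was past the threshold with plain library totals and without control replicate 3. SRPK2 was at 0.14 with plain library totals, at 0.080 with upper quartile scaling, and at 0.14 with limma on log2(FPKM + 1), filtered or not, or on log2(FPKM + 0.1). In each of these settings SRPK2 was past the threshold, which it was not in the main fit. Nothing is read from these calls of CLK2 and SRPK2, since the kinases were chosen with this contrast known. FPKM values carry the plain totals, and with those totals the median log2 fold change of all genes was 0.12, against 0.01 with TMM. On the log2(FPKM + 1) scale, filtered or not, 847 genes were at least 2-fold higher and 801 lower, against 1541 and 1617. With plain totals and in all 3 FPKM fits 1 gene of the phosphatase list was called higher, and in the FPKM fits 2 DREAM and MuvB genes were. Leaving out each library gave 0 to 1 related kinases called lower. Correlations of the deviations of same-numbered libraries were 0.05, 0.01 and 0.05, and those of differently numbered libraries ranged from −0.07 to 0.04. Values this small cannot tell whether same-numbered libraries shared a day or culture. With the replicate number as a block 5423 genes were higher. The block changed no count of these by over 1.5 times. Without length scaling the family shares moved as given with the shares. Depth was lowest for DYRK1B (505 to 602 counts per library) and for CLK4 in control libraries (452 to 488), which limits the precision of both.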

Other observations

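U2AF1, which encodes a 3′ splice site factor, of the SR-related list, had its highest level in a single Sh-PPM1G library. It stood at 1.58, 8.86 and 0.996 CPM in Sh-PPM1G libraries 1 to 3 and at 2.25, 2.54 and 0.987 CPM in control libraries 1 to 3, and did not pass edgeR's test (adjusted p = 0.425). Its counts were low, at 51, 328 and 37 in Sh-PPM1G libraries 1 to 3 and 34 to 87 in control libraries, so its level is uncertain. Whether its reads were shared with another locus was not tested. U2AF1 was singled out after its values were seen.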
